A study of Homo sapiens with 20 samples.

Results

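The lower of the 10-fold dose steps of a SPARC dose series was examined: the 5 libraries of cells given SPARC at 0.5 µg/ml (SPARC 0.5) against the 5 libraries of cells given 0.05 µg/ml (SPARC 0.05). These are 10 of the 20 libraries of the series, taken by their titles, and no untreated library entered the comparison. All cells were hTCEpi, a human corneal epithelial line kept dividing by telomerase, and both groups received recombinant human SPARC for 24 hours. The other 10 libraries are the untreated control and the cells given 5 µg/ml (SPARC 5), again 5 each. The labels do not state whether replicates were grown as separate cultures, so the p-values below measure the spread between these libraries, which may be technical. Sample numbers run in 1 unbroken block per dose. If handling followed that order, its effect cannot be told apart from that of dose. RNA was depleted of ribosomal RNA and sequenced as total RNA, and each value counts reads per gene.

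SPARC (osteonectin) is a secreted matricellular protein: it binds collagens and other matrix proteins and alters how cells attach to them without being a structural fibre itself. It can change the activity of growth factors, TGF-beta among them, and it contacts cells through integrins. In the cornea, matricellular proteins and fibronectin are laid down beneath the epithelium during wound repair, and integrins of epithelial cells hold on to that provisional matrix.

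Few genes differed across the 10-fold step, and most of them were higher at SPARC 0.5. Of 21210 genes with enough reads to test, 80 changed at an adjusted p under 0.05 (0.377%; quasi-likelihood F-test of edgeR, Benjamini-Hochberg adjustment over all genes tested). Of these, 63 rose at the higher dose (0.297% of genes tested) and 17 fell (0.0802%). Among the rises were matrix genes (TGFBI, THBS1, FN1), TGF-beta response genes (PMEPA1), integrin genes (ITGB6, ITGB5) and the keratin gene KRT7. The changes were small. The median size among the 80 was 0.158 on the log2 scale, a 1.12-fold difference, 53 were under 0.2, and 4 were over 0.5. Over all genes tested the median log2 fold change was −0.001, and 1907 genes had an unadjusted p under 0.05. In bulk RNA, a change in the number of cells of a kind and a change in RNA per cell cannot be told apart. The libraries of the 2 groups did not overlap for 50 of the 80, and for 365 (1.72%) of all genes tested, but the 80 were chosen by the same values. Of the rises 58 of 63 were protein-coding genes, as were 12 of the 17 falls and 13462 of the 21210 genes tested. Whether the calls differ in this from genes of like level was not tested. The call depended on single libraries for many of them: 29 of the 80, 27 of which rose, were called in each of the 10 fits that left out 1 library. A model of all 20 libraries called 37 of the 80. Without replicate 5 of SPARC 0.05, 44 genes were called, 2 of them falls, without replicate 2 of that group 52 (40 rises), and without replicate 4 of that group 117 (28 falls). The falls numbered 10 without replicate 4 of SPARC 0.5 and 8 without its replicate 5. Scaling by library sizes alone, without the TMM factors that correct for composition, called 37 rises and 31 falls in place of 63 and 17, so the excess of rises (78.8% of calls) became 54.4%, while a correction for GC content and length called 112 rises and 13 falls (89.6% rises).

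**Figure D1:**
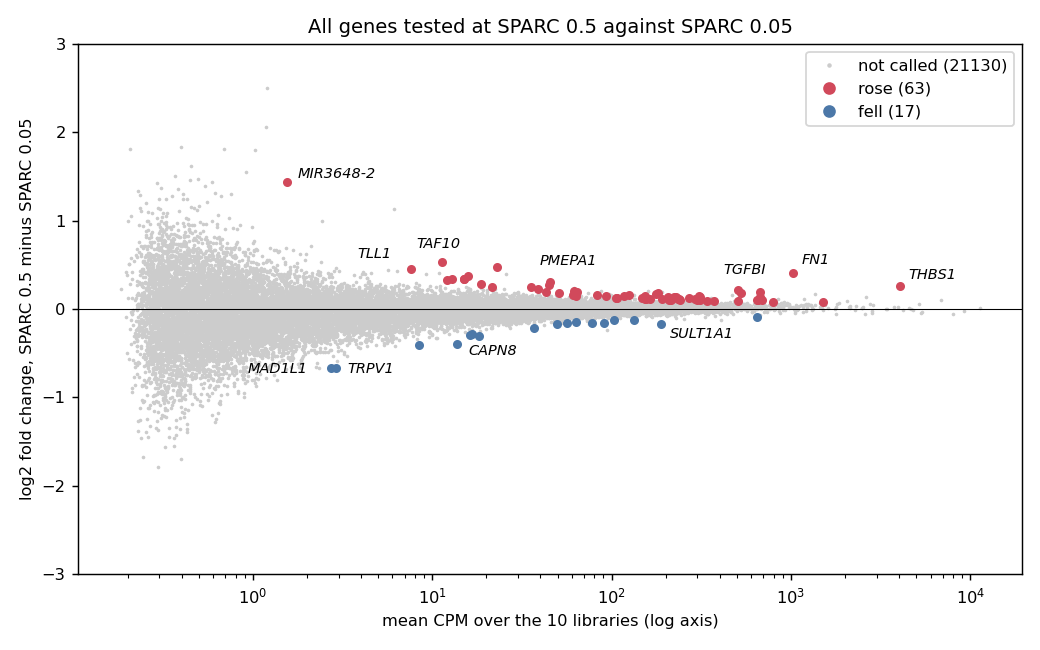
Log2 fold change (SPARC 0.5 minus SPARC 0.05, vertical axis) against mean level in counts-per-million (CPM) over the 10 libraries (horizontal log axis) for each gene tested. Red points are the 63 rises, blue points the 17 falls and grey points the genes that were not called, and the called genes lie close to 0 except at low levels.

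Of 24 matrix and matricellular genes tested, 3 rose (TGFBI, THBS1 and FN1) and none fell. The median log2 fold change of the 24 was 0.106 and 19 lay above 0, where the median over all genes tested was −0.001. For this list and those below, the shares over all genes tested were 0.297% rises and 0.0802% falls. List members were not matched to genes of like level. TGFBI, which encodes the secreted adhesion protein mutated in inherited corneal dystrophies, had the smallest p of the comparison. It stood at 458, 475, 479, 459 and 462 CPM in the SPARC 0.05 libraries and at 553, 533, 537, 533 and 551 CPM in the SPARC 0.5 libraries (CPM with TMM scaling, replicates 1 to 5). No library of one group reached the range of the other. The rise was 0.21 ± 0.02 (log2 fold change ± SE), or 1.16-fold, with an adjusted p of 1.54e-11 by edgeR. TGFBI lies at chr5:136028895-136063818 on the plus strand (GENCODE 29, GRCh38, as for the positions that follow).

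THBS1 encodes thrombospondin 1, a matricellular protein that can activate latent TGF-beta. Its level was 3510, 3610, 3640, 3810 and 3790 CPM at SPARC 0.05 and 4380, 4350, 4270, 4330 and 4720 CPM at SPARC 0.5, a rise of 0.26 ± 0.03 with an adjusted p of 2.94e-05 by edgeR. The groups were apart, and replicate 5 of SPARC 0.5 was the highest. In a model of all 20 libraries the adjusted p of THBS1 was 0.0767 by edgeR.

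FN1 (chr2:215360440-215436172, minus strand) encodes fibronectin, a main component of the provisional matrix. It was at 768, 902, 901, 953 and 897 CPM at SPARC 0.05 and at 1050, 1240, 1210, 1170 and 1200 CPM at SPARC 0.5. The groups again did not overlap, and replicate 1 was the lowest library of both. FN1 had the largest fold change of the 24 matrix genes tested, 0.41 ± 0.06 (95% interval 0.26 to 0.55), with an adjusted p close to the threshold, 0.0472 by edgeR. The FN1 call was kept in 3 of the 10 fits without 1 library and reached an adjusted p of 0.138 in the weakest, while limma voom gave 4.4e-11. The matrix genes with the next smallest p-values did not pass the test: EFEMP1 (0.08 ± 0.02, adjusted p = 0.116), COL8A1 (0.09 ± 0.03, 0.151), COL12A1 (0.09 ± 0.03, 0.224) and CCN1 (0.19 ± 0.06, 0.301), all by edgeR.

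**Figure D2:**
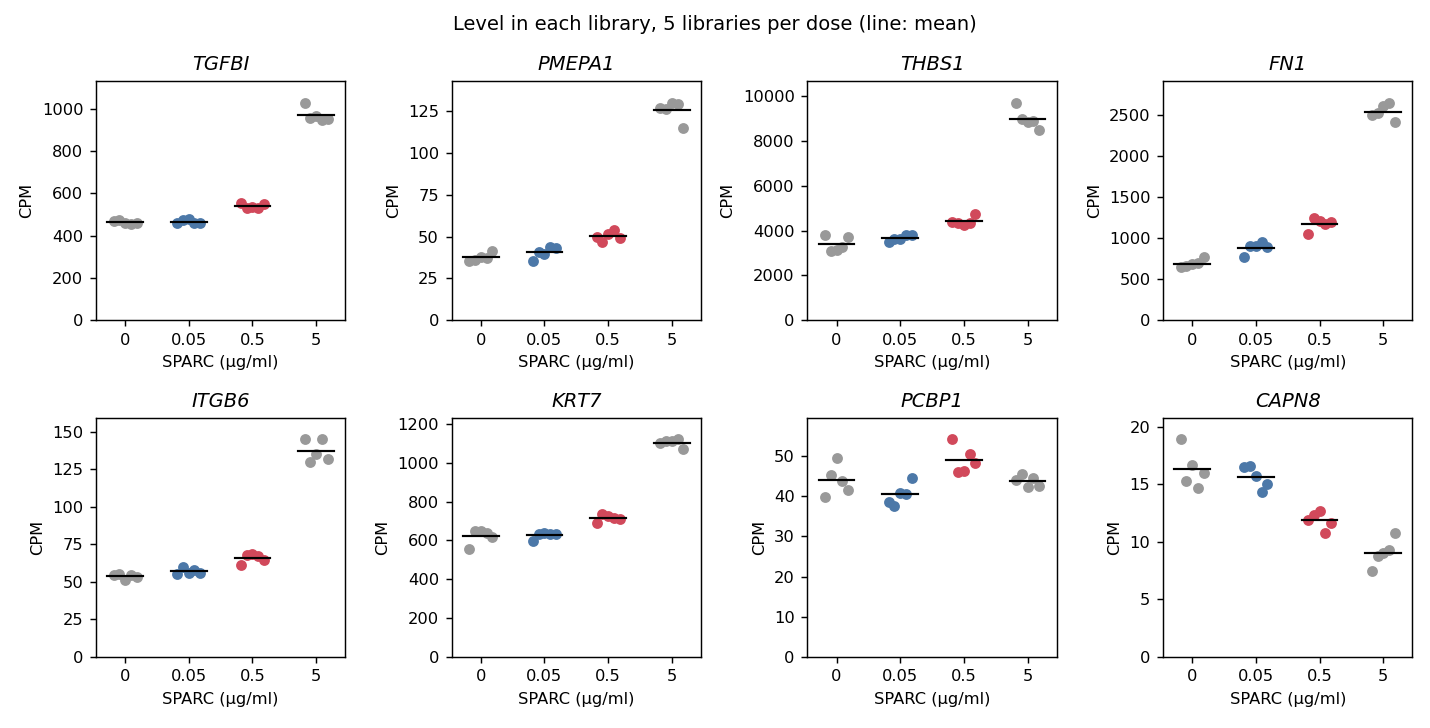
Level in CPM (vertical axis, from 0) of 8 genes in each of the 20 libraries by SPARC dose in µg/ml (horizontal axis). Points are libraries and lines are group means; blue is SPARC 0.05, red is SPARC 0.5 and grey the libraries outside the comparison. TGFBI, THBS1, FN1, PMEPA1, ITGB6 and KRT7 have no overlap between blue and red, nor has PCBP1, whose group means are 44.1, 40.5, 49.1 and 43.8 CPM by rising dose, and CAPN8 is lower in red.

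Enzymes that process the matrix and their inhibitors added 1 rise among 23 members tested, with a median of 0.053. SERPINE2, a secreted inhibitor of serine proteases such as thrombin and urokinase, stood between 30.6 and 35.3 CPM at SPARC 0.05 and between 34.4 and 41.5 CPM at SPARC 0.5. Its lowest SPARC 0.5 library lay below the highest SPARC 0.05 library, so the groups overlapped. The rise was 0.25 ± 0.05 (adjusted p = 0.00314 by edgeR, and 0.239 in the model of all 20 libraries). TLL1, a metalloprotease of the BMP1 family that trims procollagens, was not on the list and was among the largest rises. Its levels were 6.94, 5.47, 7.68, 5.81 and 6.35 CPM against 8.12, 9.08, 9.06, 9.1 and 8.72 CPM. All SPARC 0.5 libraries exceeded all SPARC 0.05 libraries, and the log2 fold change was 0.45 ± 0.10 (adjusted p = 0.0123 by edgeR, 0.0818 without replicate 2 of SPARC 0.05). AC037198.1, a non-coding gene named here after its values were seen, rose by 0.33 (adjusted p = 0.0288 by edgeR). It spans chr15:39586561-39587293 on the plus strand, inside THBS1 (chr15:39581079-39599466, plus strand), so its reads and those of THBS1 cannot be told apart.

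The stretches before the RefSeq starts of 3 of these rises, TGFBI, THBS1 and the TGF-beta target PMEPA1, are shown because these genes moved together. Each is the 250 bases before the RefSeq start in GRCh38.p14, read on the gene's strand: TGFBI at chr5:136028738-136028987 (plus), PMEPA1 at chr20:57711473-57711722 (minus) and THBS1 at chr15:39580829-39581078 (plus). The GENCODE starts of TGFBI and PMEPA1 lie inside these windows, so part of each window is within the gene as placed by GENCODE. The GENCODE start of THBS1 directly follows its window. Capitals mark the only match found to the 3 motifs searched, a GGAATG.
TGFBI: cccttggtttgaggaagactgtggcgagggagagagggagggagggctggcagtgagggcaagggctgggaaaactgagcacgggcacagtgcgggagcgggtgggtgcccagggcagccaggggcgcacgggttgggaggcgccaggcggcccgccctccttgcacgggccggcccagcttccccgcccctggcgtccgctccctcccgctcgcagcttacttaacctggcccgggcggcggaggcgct
PMEPA1: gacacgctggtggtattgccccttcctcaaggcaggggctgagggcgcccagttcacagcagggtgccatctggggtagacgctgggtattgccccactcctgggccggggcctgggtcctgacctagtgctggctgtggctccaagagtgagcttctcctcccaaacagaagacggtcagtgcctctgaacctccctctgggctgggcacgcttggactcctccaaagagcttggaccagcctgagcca
THBS1: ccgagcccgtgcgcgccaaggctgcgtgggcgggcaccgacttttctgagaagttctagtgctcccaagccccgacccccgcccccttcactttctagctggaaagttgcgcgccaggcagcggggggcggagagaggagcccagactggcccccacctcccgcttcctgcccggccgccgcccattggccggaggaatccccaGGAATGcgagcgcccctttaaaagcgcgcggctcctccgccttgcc
The motifs were CAGACA (bound by SMAD proteins), TGANTCA (bound by AP-1) and GGAATG (bound by TEAD proteins), on either strand, and none of them contains another. RefSeq windows were found for 50 of the 63 rises and 11 of the 17 falls. CAGACA stood in 16.0% of the windows of the rises and in 13.6% of the 27305 windows of all genes, TGANTCA in 10.0% and 6.6%, and GGAATG in 6.0% and 11.9%. In the windows of the falls the shares were 18.2%, 18.2% and 9.09%, in the same order. These are shares of letters in a short window, given with no test.

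Of 30 genes on the TGF-beta list 3 rose, TGFBI, PMEPA1 and BHLHE40, and none fell. The list mixes response genes with parts of the pathway, such as ligands (TGFB1), receptors (TGFBR1), SMAD genes and latent binding proteins (LTBP1). Its median is therefore no measure of TGF-beta target genes alone. The median of the 30 was 0.006 with 18 above 0, near the median of all genes. PMEPA1 (chr20:57648392-57711536, minus strand) encodes a membrane protein that is induced by TGF-beta and dampens its signal by binding SMAD proteins. It was at 35.2, 40.7, 39.7, 43.6 and 43.1 CPM at SPARC 0.05 and at 49.7, 46.8, 51.4, 54.1 and 49.0 CPM at SPARC 0.5. The groups were apart, with a rise of 0.31 ± 0.05 or 1.24-fold (adjusted p = 2.1e-05 by edgeR). BHLHE40, a transcriptional repressor that also counts among clock genes, rose by 0.16 ± 0.04 (adjusted p = 0.0346 by edgeR, 0.063 in the model of all 20 libraries) and was called in 3 of the 10 fits without 1 library. The secreted activin antagonist FSTL3, outside the list, rose by 0.16 (adjusted p = 0.001 by edgeR), with 113 to 128 CPM against 126 to 136 CPM. Other genes of the list did not pass: LTBP2 had 0.10 ± 0.03 (adjusted p = 0.103) and SKIL had 0.10 ± 0.04 (0.424), by edgeR.

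Among 26 genes of integrins and focal adhesions, ITGB6, ITGB5 and TNS4 rose and none fell (median 0.031, 20 above 0). Over all genes tested 0.297% rose and the median was −0.001. ITGB6 (chr2:160099666-160200313, minus strand) encodes the partner of integrin αv that epithelial cells express in wounds and that activates latent TGF-beta. It stood at 55.5, 60.2, 55.9, 57.8 and 56.2 CPM at SPARC 0.05 and at 61.4, 67.6, 68.6, 67.0 and 64.4 CPM at SPARC 0.5. The ranges did not meet, and the rise was 0.20 ± 0.04 (adjusted p = 0.00094 by edgeR). ITGB5, the subunit of the vitronectin receptor αvβ5, was at 97.1, 101, 107, 102 and 106 CPM against 115, 111, 112, 110 and 110 CPM. The groups were apart by a few CPM, with a rise of 0.12 ± 0.03 (adjusted p = 0.0351 by edgeR, 0.109 in the model of all 20 libraries) that was called in 3 of the 10 fits without 1 library. TNS4, an adaptor that links integrin tails to signalling, rose by 0.10 ± 0.02 (adjusted p = 0.0132 by edgeR, 0.149 in the weakest of those fits, 0.0969 in the model of all 20 libraries). The αv chain itself, ITGAV (0.05 ± 0.03, adjusted p = 0.619 by edgeR), and the β1 chain ITGB1 (0.04 ± 0.02, 0.499) did not pass.

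LAMA3, the α chain of the laminin that anchors hemidesmosomes, was the rise among 24 genes of basement membrane and hemidesmosome (median 0.018, 13 above 0). Its levels were 640, 658, 668, 683 and 684 CPM against 700, 699, 700, 704 and 763 CPM. The SPARC 0.5 libraries 1 to 4 lay between 699 and 704 CPM, just above the SPARC 0.05 range, and replicate 5 stood apart. The rise was 0.10 ± 0.02 (adjusted p = 0.0151 by edgeR, 0.57 in the model of all 20 libraries), and it was called in 6 of the 10 fits without 1 library (lost without replicate 5 of SPARC 0.5 and without replicate 1, 2 or 3 of SPARC 0.05). Outside the list, FLRT2, a receptor with leucine-rich repeats, rose by 0.25 ± 0.06 (adjusted p = 0.0299 by edgeR), with 19.3 to 20.0 CPM against 21.7 to 24.6 CPM. AMIGO2, an adhesion molecule of the same broad class, rose by 0.17 ± 0.03 (adjusted p = 3.08e-05 by edgeR), with 158 to 172 CPM against 178 to 192 CPM.

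Of 15 genes for receptors and partners of SPARC, ITGB5 was the rise and none fell. Of the 10 genes of the SPARC family, 5 had enough reads to test and none passed (FSTL1, the one with the smallest p, 0.11 ± 0.05, adjusted p = 0.42 by edgeR). SPARC itself was barely transcribed, with 0 to 9 reads in each of the 10 libraries, and was not tested.

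**Figure D3:**
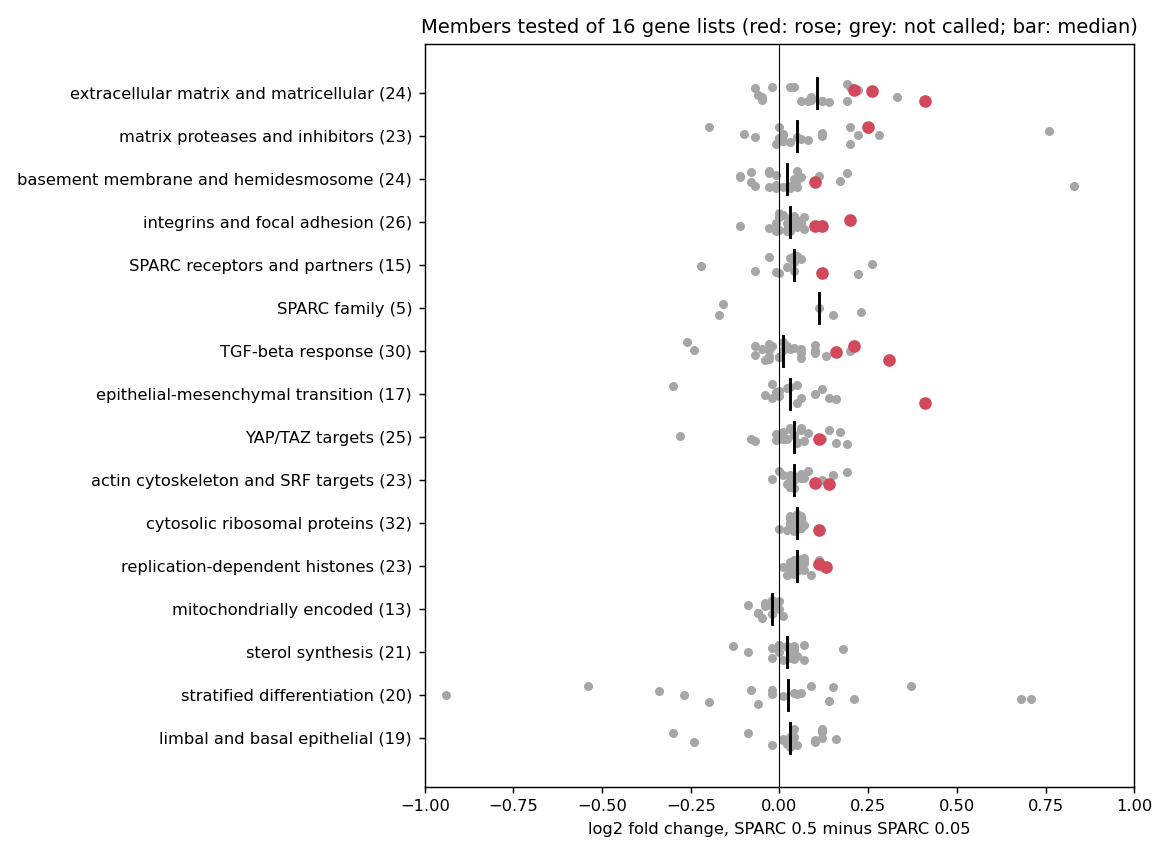
Log2 fold change (SPARC 0.5 minus SPARC 0.05, horizontal axis) of each member tested in 16 gene lists, with the number of members in brackets. Red points rose, grey points were not called and black bars are list medians, and no listed gene fell.

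Epithelial markers stood far above those of stroma, immune cells, endothelium and melanocytes, while the markers more specific to cornea were low. The 12 corneal epithelial markers summed to between 12200 and 12500 CPM at SPARC 0.05 and between 12300 and 12900 CPM at SPARC 0.5, most of it KRT5 (11200 CPM on average). TP63, the basal epithelial factor, was at 273 CPM and PAX6, the eye-field factor, at 7.46 CPM on average. The cornea-specific keratin gene KRT12 had 0 to 3 reads in a library and KRT3 averaged 1.59 CPM, so these keratins of differentiated corneal epithelium were nearly absent. Markers of stroma and fibroblasts summed to 7.33 to 10.5 CPM and 8.22 to 11.7 CPM, with 10 of 13 under 1 CPM and KERA without a read. The 15 immune markers summed to 4.88 to 6.30 CPM and 4.96 to 6.25 CPM, with 13 under 1 CPM and no read of MS4A1, HLA-DRA or TYROBP. The 14 markers of endothelium and melanocytes summed to 10.8 to 15.0 CPM and 11.5 to 12.9 CPM, with 11 under 1 CPM.

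Markers of conjunctival and goblet cells summed to 916 to 953 CPM at SPARC 0.05 and 1000 to 1050 CPM at SPARC 0.5. The marker that rose was KRT7 (chr12:52232520-52252186, plus strand), a keratin of simple and conjunctival epithelia. KRT7 was at 597, 635, 637, 631 and 631 CPM against 690, 735, 726, 716 and 711 CPM. The lowest SPARC 0.5 library exceeded each SPARC 0.05 library, and the rise was 0.19 ± 0.02 (adjusted p = 4.21e-10 by edgeR). The other 7 markers tested did not pass, TFF1 had no read, and 8 of the 13 were under 1 CPM. Of 19 limbal and basal genes and 20 genes of stratified differentiation none was called by edgeR, with 5 and 3 at an unadjusted p under 0.05, in the fit used throughout. Other fits called limbal genes as rises: 1 with limma voom, 3 with no low-count filter, 2 with the replicate block and 1 with the GC and length correction. With no low-count filter 1 gene of stratified differentiation was called. KRT15, a limbal keratin, was at 82.9 to 117 CPM against 78.4 to 95 CPM, with overlap and a log2 fold change of −0.24 ± 0.10 (adjusted p = 0.534 by edgeR). ALDH3A1, the corneal crystallin enzyme, had −0.33 ± 0.11 (adjusted p = 0.228 by edgeR).

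Of 23 genes of the actin cytoskeleton and of its serum response factor targets 2 rose and none fell. Their median was 0.042, and 21 lay above 0 (20 to 23 over the alternative fits). LIMA1, which crosslinks actin filaments, rose by 0.14 (adjusted p = 0.000601 by edgeR, 0.143 in the model of all 20 libraries) with 190 to 208 CPM against 209 to 224 CPM. TPM4, a tropomyosin, rose by 0.10 (adjusted p = 0.0205 by edgeR, 0.0701 in the model of all 20 libraries, 0.076 with library sizes only), and was called in 5 of the 10 fits without 1 library. TMSB10, a thymosin that sequesters actin monomers and not on the list, was at 627, 651, 641, 655 and 621 CPM against 697, 686, 711, 683 and 749 CPM. Its groups were apart, and the rise was 0.14 ± 0.02 (adjusted p = 2.64e-05 by edgeR). CALD1 (0.10 ± 0.03, adjusted p = 0.0802 by edgeR) and ACTB (0.06 ± 0.02, 0.0807) did not pass. The YAP/TAZ list, whose genes respond to cell tension, had 1 rise, FJX1 (0.11 ± 0.03, adjusted p = 0.02 by edgeR), among 25 (median 0.043, 20 above 0). FJX1 was called in 6 of the 10 fits without 1 library, and had adjusted p = 0.167 in the model of all 20 libraries and 0.0656 with library sizes only, by edgeR.

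CEBPB, a leucine zipper factor on the list of the unfolded protein response, was at 58.2, 56.5, 58.8, 64.5 and 60.9 CPM against 72.5, 67.7, 65.6, 72.6 and 65.2 CPM. No library of SPARC 0.05 reached the SPARC 0.5 range, and the rise was 0.20 ± 0.04 (adjusted p = 0.00183 by edgeR). CEBPB was the 1 gene called among the 27 of that list, where the chaperone HSPA5 had 0.06 and was not called. ETS1, an ETS family factor of migrating epithelium, rose by 0.14 (adjusted p = 0.00178 by edgeR, 0.389 in the model of all 20 libraries). ZFP36L1, which binds AU-rich elements and promotes RNA decay, rose by 0.14 (adjusted p = 0.000127 by edgeR) with 289 to 307 CPM against 319 to 346 CPM. NDRG1, on the hypoxia list and the 1 gene called of its 26, rose by 0.12 ± 0.03 (adjusted p = 0.0277 by edgeR, 0.541 in the model of all 20 libraries) and was called in 5 of the 10 fits without 1 library.

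Other rises lay outside the lists. HNRNPAB, a nuclear RNA-binding protein, was at 303, 292, 285, 286 and 299 CPM against 327, 312, 319, 343 and 322 CPM. PCBP1, which binds poly(C) stretches in RNA, was at 38.6, 37.7, 40.8, 40.6 and 44.7 CPM against 54.2, 46.2, 46.4, 50.5 and 48.4 CPM. Neither gene's groups overlapped, and the rises were 0.15 ± 0.02 (adjusted p = 8.05e-05 by edgeR) for HNRNPAB and 0.28 ± 0.05 (0.000127) for PCBP1. TAF10, a subunit of the general factor TFIID, was at 9.18, 9.19, 7.73, 10.2 and 10.2 CPM against 15.1, 11.0, 13.2, 17.0 and 10.9 CPM. The SPARC 0.5 libraries varied more among themselves than those of SPARC 0.05 and still lay above them, with a rise of 0.53 ± 0.10 (adjusted p = 0.00258 by edgeR, 0.233 in the model of all 20 libraries).

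All 23 replication-dependent histone genes tested lay above 0 (22 with library sizes only), with a median of 0.05 and 2 called as rises, H2AC6 (0.13 ± 0.02, adjusted p = 0.000859 by edgeR) and H2AC20 (0.11 ± 0.02, 0.011). Reads of histone genes may be shared between near-identical copies. All 32 cytosolic ribosomal protein genes tested also lay above 0, with a median of 0.05. With library sizes only 31 did, as did 31 with a filter of at least 1 CPM in 5 libraries. The gene called was RPLP2, a rise (0.11 ± 0.02, adjusted p = 0.0148 by edgeR). RPLP2 was called in 5 of the 10 fits without 1 library and had adjusted p = 0.0524 with library sizes only, by edgeR. At SPARC 5 against control the median was 0.006 for the histone list and 0.002 for the ribosomal list. There RPLP2 had 0.02 (adjusted p = 0.682 by edgeR) and no ribosomal gene was called. Of the histone genes H2AC20 was called there (0.09, adjusted p = 0.0267 by edgeR). The 13 mitochondrially encoded genes had a median of −0.023 with 1 above 0 and none called. The share of reads from the mitochondrial genome was 3.78 ± 0.153% at SPARC 0.05 and 3.69 ± 0.0169% at SPARC 0.5 (mean ± SD, n = 5), and its part in these lists was not tested. The rises as a whole had a median GC content of 53.7% and the falls 56.8%, against 49.2% over genes tested. The called genes were also more abundant. The median of the mean levels was 165 CPM for the rises and 49.8 CPM for the falls, against 6.22 CPM over genes tested.

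Some of the largest rises were in short or repeated genes, where the place of a read is uncertain. MIR3648-2, the largest rise, had 26 to 45 reads in the SPARC 0.05 libraries and 42 to 141 in the SPARC 0.5 libraries. Its levels were 0.816, 0.709, 0.674, 0.838 and 1.07 CPM against 3.83, 1.57, 1.54, 3.36 and 1.01 CPM. Replicate 5 of SPARC 0.5 lay inside the SPARC 0.05 range, and replicates 1 and 4 carried most of the rise of 1.44 ± 0.27 (adjusted p = 0.00304 by edgeR, 0.0872 by limma voom). RN7SKP180, a pseudogene of the abundant 7SK RNA, rose by 0.47 ± 0.08 (adjusted p = 0.000612 by edgeR), and MTCO2P2, a pseudogene of mitochondrial MT-CO2, rose by 0.37 (adjusted p = 0.00275 by edgeR). Reads of the parent genes may be counted in both, which was not tested. The parent MT-CO2 had 0.01 ± 0.02 (adjusted p = 0.93 by edgeR).

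Of the 17 falls, CAPN8 and SULT1A1 were the 2 called in each of the 10 fits that left out 1 library. CAPN8, a calpain protease known from stomach mucosa, was at 16.5, 16.6, 15.7, 14.3 and 15.0 CPM against 11.9, 12.3, 12.7, 10.8 and 11.6 CPM. The groups were apart, and the log2 fold change was −0.40 ± 0.07 or 0.76-fold (adjusted p = 0.00106 by edgeR). SULT1A1, a phenol sulfotransferase, was at 196, 204, 200, 188 and 207 CPM against 177, 180, 190, 167 and 176 CPM. One SPARC 0.5 library, replicate 3, exceeded the lowest of SPARC 0.05, and the log2 fold change was −0.17 ± 0.03 (adjusted p = 0.000139 by edgeR, 0.523 in the model of all 20 libraries). Its near copy SULT1A2 had −0.41 ± 0.10 (adjusted p = 0.0351 by edgeR), and reads of these paralogs may be split between them.

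The largest falls were in genes with few reads. TRPV1, the capsaicin and heat channel, was at 4.34, 2.91, 2.93, 2.93 and 4.76 CPM against 1.98, 2.72, 2.04, 2.36 and 2.20 CPM. The groups were apart, narrowly, and replicates 1 and 5 of SPARC 0.05 were the high ones. The log2 fold change was −0.66 ± 0.16 (adjusted p = 0.037 by edgeR), and leaving out 1 library brought the adjusted p to as much as 0.311. MAD1L1, a spindle checkpoint gene, had −0.66 ± 0.17 (adjusted p = 0.0476 by edgeR) with overlapping groups. Host genes of small RNAs that fell were MIRLET7A1HG (−0.30, adjusted p = 0.011), SNHG17 (−0.13), SNHG3 (−0.13) and MIR205HG (−0.09, 0.0343), by edgeR. Other falls were C6orf141 (−0.30), RAB26 (−0.28), a small GTPase of secretory vesicles, and KLHDC4 (−0.21).

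Several other gene lists gave no call. None of the 21 genes of sterol synthesis, 23 of the NRF2 response, 27 of the interferon response, 24 inflammatory and NF-kB targets, 29 of G1/S, 31 of G2/M or 24 p53 targets passed the test in the edgeR fit used throughout, by DESeq2 or by limma voom. In edgeR fits with no low-count filter, with the replicate block and without replicate 4 of SPARC 0.05, 1 inflammatory gene was called as a rise. At an unadjusted p under 0.05 by edgeR the lists just named had 4, 4, 3, 3, 3, 0 and 0 genes, in that order. Further lists without a call in the fit used throughout had calls in other fits. The list of SREBP control had 1 fall with library sizes only, by limma voom and with the filter of 1 CPM. By DESeq2 it had 1 rise and 1 fall. EGFR ligands and immediate early genes had 2 rises with the replicate block, 2 with the GC and length correction and 1 with no low-count filter. The Wnt list had 1 rise by DESeq2 and 1 with the GC and length correction. By limma voom the list of fatty acid synthesis had 1 fall and that of metallothioneins 1 rise. HMGCS1, an early enzyme of sterol synthesis, had 0.07 (95% interval 0.02 to 0.12, adjusted p = 0.289 by edgeR) and VEGFA had −0.07 (−0.13 to −0.01, 0.493). FTL, the ferritin light chain, had −0.06 (−0.11 to −0.01, 0.359). XYLT1, which starts glycosaminoglycan chains, had 0.38 with a wide interval (−0.26 to 1.02). IGFBP3 had 0 to 11 reads a library at SPARC 0.05 and 2 to 42 at SPARC 0.5 and was not tested.

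The libraries of SPARC 5 and control share none with this comparison, and the 80 genes were read in them. At SPARC 5 against control 2337 of 20807 genes tested were called (11.2%), 1424 as rises (6.84%) and 913 as falls (4.39%). With library sizes only there were 921 rises and 1949 falls. Of the 80, 75 (93.8%) had the same direction there, as did 11896 (58.4%) of the 20385 genes tested in both. The 80 were more abundant than genes tested as a whole, and the share among genes of like level was not tested. Of the 63 rises 42 were called as rises, 20 were not called and 1, ATP5F1D, was called as a fall (−0.13, adjusted p = 0.00248 by edgeR). Of the 17 falls 14 were called as falls and 3 were not called. The median size of the 80 was 0.303 there against 0.158 at the step, and the size was larger for 55. The mean levels of the 4 groups did not all follow the dose. Of the 63 rises 21 were in the order control, SPARC 0.05, SPARC 0.5, SPARC 5, 42 had a SPARC 0.05 mean below control and 18 had a SPARC 5 mean below SPARC 0.5. Of the 17 falls 13 were in the falling order. The libraries that chose these genes enter these means, so the counts are a description.

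Among the 80, FN1 and 6 other genes named above, with AC037198.1 inside THBS1, had the largest rises at SPARC 5 against control. FN1 had 1.88 ± 0.05 at SPARC 5 against control and 0.41 at the step, PMEPA1 had 1.74 and 0.31, FLRT2 1.65 and 0.25, TLL1 1.58 and 0.45, THBS1 1.39 and 0.26, ITGB6 1.35 and 0.20, and TGFBI 1.06 and 0.21. CAPN8 had −0.85 and −0.40. Other rises were near 0 at SPARC 5 against control: PCBP1 had −0.01 ± 0.05 (adjusted p = 0.921), H2AC6 0.01 (0.923), TXNDC5 0.03 (0.894) and HNRNPAB 0.07 (0.127), by edgeR. For RN7SKP180 the value was −0.23 (adjusted p = 0.147 by edgeR).

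**Figure D4:**
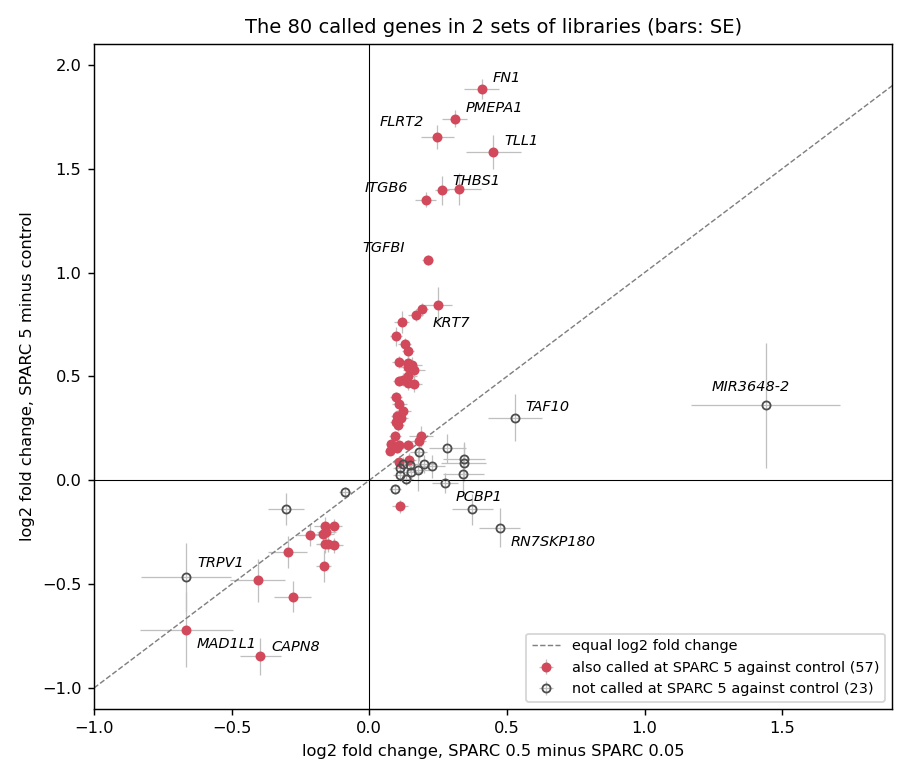
Log2 fold change of the 80 called genes at SPARC 0.5 minus SPARC 0.05 (horizontal axis) and at SPARC 5 minus control (vertical axis), which use different libraries. Bars are SE, filled points were also called at SPARC 5 against control (56 in the same direction and ATP5F1D in the opposite one), and the dashed line marks equal change; FN1, PMEPA1, FLRT2 and TLL1 lie far above the line, PCBP1 and RN7SKP180 near or below 0.

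Both steps of the series are 10-fold, so the lower step was compared with the upper step (SPARC 5 minus SPARC 0.5) in 1 model of 15 libraries. The SPARC 0.5 libraries enter both steps with opposite sign, and genes that were called at the lower step are favoured to be high there. Of 22213 genes tested 172 differed between the steps (0.774%), 117 with the upper step higher (0.527%) and 55 with the lower step higher (0.248%). With the GC and length correction these were 93 and 83, and without replicate 4 of SPARC 0.5 they were 74 and 20, without its replicate 3, 77 and 28. Of the 63 rises 21 had the higher change at the upper step, 9 at the lower step, and 33 did not pass the test of the difference. None of the 17 falls passed it. TGFBI changed by 0.21 at the lower step and 0.84 ± 0.02 at the upper (adjusted p of the difference 1.41e-23 by edgeR). ITGB6 changed by 0.21 and 1.05 (7.01e-19), PMEPA1 by 0.31 and 1.32 (9.96e-17), KRT7 by 0.19 and 0.62 (9.62e-16) and FLRT2 by 0.25 and 1.27 (4.3e-14). For THBS1 the steps were 0.26 and 1.02 (4.91e-05) and for FN1 0.41 and 1.11 (0.00376).

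The rises with the larger change at the lower step were led by PCBP1 (0.28, then −0.17 ± 0.05, adjusted p of the difference 0.000172 by edgeR) and HNRNPAB (0.15, then −0.07, 0.000947). MIR3648-2, COPRS, ATP5F1D, TXNDC5, H2AC6, RPS25 and MTCO2P2 were the other 7. Their upper step was negative in each of the 9. These genes were chosen as high at the dose shared by both steps, and the upper step subtracts those same libraries. A negative upper step and a small p of the difference were thus favoured in advance. At SPARC 5 against control 0 of the 9 were called as rises, and ATP5F1D was called as a fall. The SPARC 5 libraries also enter the upper step, so this count is not independent of the choice of the 9. CAPN8 changed by −0.39 at both steps (adjusted p of the difference 0.999 by edgeR), and SULT1A1 by −0.16 and −0.19 (0.976). ITGB5 (0.12 and 0.19, adjusted p of the difference 0.786) and BHLHE40 (0.16 and 0.26, 0.765) were not told apart between steps.

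**Figure D5:**
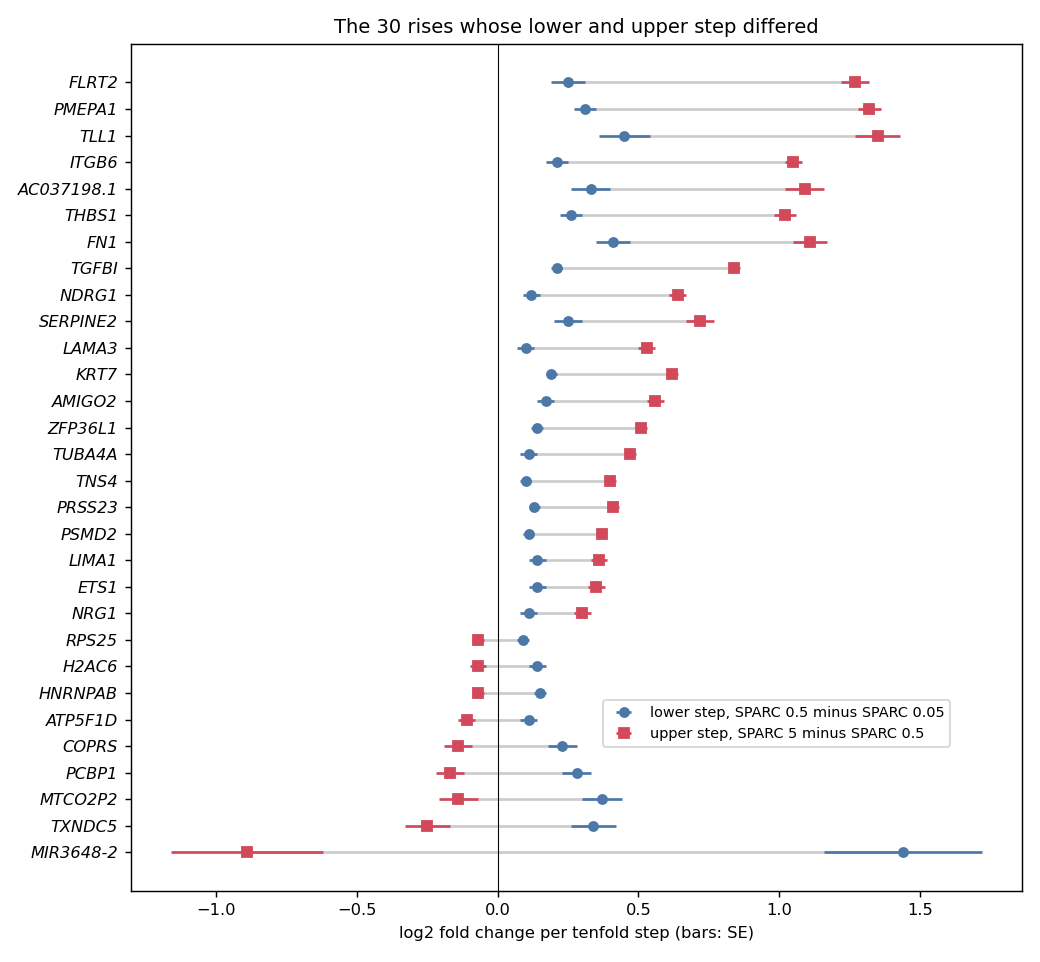
Log2 fold change per 10-fold step (horizontal axis) of the 30 rises whose steps differed, with the lower step as blue circles, the upper step as red squares and bars for SE. The 21 genes at the top have the upper step to the right of the lower step, and the 9 at the bottom have it to the left and below 0.

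No measure of the libraries passed a test between the groups. Total counts ran from 31955358 to 50112286 over the 10 libraries (exact permutation p = 0.325, two-sided; 5 libraries against 5 can reach 0.00794 at the least). For the mitochondrial share the exact p was 0.317, for the share of the 10 most abundant genes 0.246, for the share of genes detected 0.849 and for the slope of level on GC content 0.405. After adjustment over the 5 measures the p-values were 0.506 to 0.849. Counts of replicates differed by more than sampling noise, with a chi-square per gene of 4.09 to 6.08 between pairs, so none was counted as a repeat of another.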

How the data were processed

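Total RNA of hTCEpi cells was sequenced after enzymatic depletion of ribosomal RNA. The authors deposited whole read counts per Ensembl gene; per the submitters' processing notes featureCounts 2.0.3 and STAR 2.7.9a were among the tools, on GRCh38. How the counting treated strand, and which annotation release it used, is not stated in these sources, so reads of antisense, overlapping or near-identical genes may be shared.

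Identifiers standing on several entries were kept once, and 60671 of 60871 entries remained. Libraries were grouped by title. Genes passing filterByExpr (minimum count 10, by group) were tested in edgeR 4.0.16 (R 4.3.3) with TMM factors and the robust quasi-likelihood F-test, separately for the 10 libraries of SPARC 0.5 and SPARC 0.05, the 10 of SPARC 5 and control, and the 15 of both steps. P-values were adjusted by Benjamini-Hochberg over all genes tested, with calls at adjusted p under 0.05. Printed levels are CPM with TMM factors over 20 libraries. Total counts of the 10 libraries were 31955358 to 50112286, with a biological coefficient of variation of 5.84% in common over genes. Reads carried no molecular identifiers that could separate PCR copies. Library measures were compared with exact permutation tests (Python 3.11.15, all arrangements).

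Named genes were the 15 largest rises and falls with a symbol and at least 1 CPM, the 2 members with the smallest p of each list with a call, and a fixed panel of genes, 1 of which is not reported here; other calls are examples chosen with their values known. The genes, gene lists and comparison were chosen with earlier results of these data known. Positions, GC content and lengths came from GENCODE 29, promoter windows from RefSeq GRCh38.p14. The scripts were tested on simulated counts. Alternatives were library sizes only, RLE factors, DESeq2 1.42.0, limma 3.58.1 voom, other filters, all 20 libraries in 1 model, a replicate block, a GC and length correction, and leaving out each library. The authors' own comparison tables were not used.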

Additional observations from a re-analysis of the deposited data

Results flagged for a closer look

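Among the named genes, 124 sets of 5 libraries were looked at for a library far from the other 4 (a gap over 0.71 of the range of the set), and 4 were found, where chance gives about 1 in 20 sets. THBS1 stood at 4720 CPM in replicate 5 of SPARC 0.5 and at 4270 to 4380 CPM in the other libraries of that group. LAMA3 stood at 763 CPM in the same library and at 699 to 704 CPM in the others, and its rise was not called without that library. HSPA5 stood at 860 CPM in replicate 1 of SPARC 0.5 and at 909 to 922 CPM in the others. KRT7 stood at 597 CPM in replicate 1 of SPARC 0.05 and at 631 to 637 CPM in the others.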

How the results depend on the processing

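All of the 80 calls with a value kept their direction under each alternative run, but their number moved. Against 63 rises and 17 falls, DESeq2 called 146 genes (107 rises, 39 falls), no low-count filter 137 (98 and 39), the GC and length correction 125 (112 and 13), a filter of at least 1 CPM in 5 libraries 95 (69 and 26), library sizes only 68 (37 and 31), and all 20 libraries in 1 model 41 (36 and 5). DESeq2 kept 79 of the 80, limma voom 58 and the model of 20 libraries 37; the cause was not tested. The labels do not say whether replicate numbers pair the libraries. Same-numbered libraries correlated only weakly, at −0.0367 to 0.0455, yet 7 of 10 correlated best with their own number. Whether the numbers pair libraries was not tested further. The replicate block called 109 genes and kept 76 of the 80.

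Without 1 library the calls ran from 44 (without SPARC 0.05 replicate 5; 52 without SPARC 0.05 replicate 2) to 117 (without SPARC 0.05 replicate 4), the rises from 40 (without SPARC 0.05 replicate 2) to 89 and the falls from 2 to 28. The falls were 2 without SPARC 0.05 replicate 5, 8 without SPARC 0.5 replicate 5, 10 without SPARC 0.5 replicate 4 and 28 without SPARC 0.05 replicate 4. The share of calls with the same direction at SPARC 5 against control was 87.3% to 94.4%. With library sizes only, SPARC 5 against control had 921 rises and 1949 falls.

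Genes with the lower step higher were 101 by DESeq2, 31 with all 20 libraries and 83 with the GC and length correction. Without 1 library, genes that differed between steps numbered 94 (without SPARC 0.5 replicate 4; 105 without SPARC 0.5 replicate 3) to 174, with the lower step higher for 20 to 66 and the upper step higher for 74 to 122. What depth limits was not tested.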
